A study of Mus musculus with 17 samples.

Results

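The genes described here are 7 members of a single regulatory system, the MEF2 transcription factors Mef2a, Mef2c and Mef2d and the class IIa histone deacetylases Hdac4, Hdac5, Hdac7 and Hdac9, out of 55450 genes listed and 17615 tested in mouse hippocampus. They were chosen by name as a family, on a measured value already known from these libraries: the level of Mef2c in the epileptic mice given the Kcna1 guide against that in the epileptic mice given the control guide. For that reason the difference between those groups is given for all 7 genes as a description, without a test. The 7 genes all passed the filter on low counts. The remaining MEF2 factor, Mef2b, is no member and did not pass it. Mef2b had between 0 and 21 reads per library, was at 0 in 3 of 17 libraries and exceeded a floor of 3 reads in 10.

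RNA was sequenced from the hippocampi of adult C57BL/6J mice of either sex, aged 2 to 3 months at the start, in 3 groups. Sham control Ctrl-dCas9A mice (5 libraries) had no epilepsy and received the control guide sgLacZ. Epileptic Ctrl-dCas9A mice (6 libraries) received the same guide a week after kainic acid had been injected into the right amygdala to bring on status epilepticus. Epileptic Kcna1-dCas9A mice (6 libraries) had the same injury and received a guide to the promoter of Kcna1, which encodes the potassium channel Kv1.1. Every group thus carried the viral system itself: paired AAV9 vectors placed in the right ventral hippocampus, with dCas9-VP64, a Cas9 that cuts no DNA fused to a transcriptional activator, under a doxycycline-inducible promoter, and the doxycycline-dependent transactivator under a Camk2a promoter that favours excitatory neurons. Doxycycline was given in the food for 2 weeks. The labels do not say whether each library came from a separate animal, so P values measure the spread between these libraries. Because the virus reached part of the tissue and the RNA came from all cells of it, these are averages over transduced and untransduced cells, and fewer cells of a type cannot be told apart from less RNA per cell.

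MEF2 proteins bind DNA as dimers and switch on genes that neurons use in maturation, synapse remodelling and the response to activity. Class IIa deacetylases have little catalytic activity of their own. They sit on MEF2, recruit corepressors together with Hdac3, and hold target genes down until calcium-dependent kinases phosphorylate them, when 14-3-3 proteins carry them out of the nucleus. Calcineurin acts on MEF2 itself, and Mef2c and Hdac4 are needed for normal synapse number and memory in the forebrain.

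The promoters of 3 members are shown because they bear on whether the family contains its own binding motif. Sequences are from RefSeq, build GRCm38.p6, and run from 250 bases before to 50 bases after the annotated start, 5′ to 3′ on the strand of the gene. Capitals mark a match to the MEF2 consensus, searched on both strands. Mef2a and Hdac5 each have 1 annotated start in that table, and the Mef2c window is the first of its 3.
Mef2a, chr7:67372809-67373108, minus strand: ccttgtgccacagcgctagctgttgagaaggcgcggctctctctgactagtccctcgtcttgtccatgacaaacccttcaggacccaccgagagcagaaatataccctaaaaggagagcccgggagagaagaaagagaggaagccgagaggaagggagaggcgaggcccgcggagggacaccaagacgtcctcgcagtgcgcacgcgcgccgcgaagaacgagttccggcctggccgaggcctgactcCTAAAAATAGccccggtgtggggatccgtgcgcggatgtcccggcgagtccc
Hdac5, chr11:102230123-102230422, minus strand: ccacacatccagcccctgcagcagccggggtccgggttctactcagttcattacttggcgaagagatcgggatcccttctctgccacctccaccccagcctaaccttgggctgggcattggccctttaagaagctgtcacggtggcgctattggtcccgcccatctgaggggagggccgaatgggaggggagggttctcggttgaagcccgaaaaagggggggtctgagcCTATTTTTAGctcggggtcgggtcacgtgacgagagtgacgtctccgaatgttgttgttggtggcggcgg
Mef2c, chr13:83503784-83504083, plus strand: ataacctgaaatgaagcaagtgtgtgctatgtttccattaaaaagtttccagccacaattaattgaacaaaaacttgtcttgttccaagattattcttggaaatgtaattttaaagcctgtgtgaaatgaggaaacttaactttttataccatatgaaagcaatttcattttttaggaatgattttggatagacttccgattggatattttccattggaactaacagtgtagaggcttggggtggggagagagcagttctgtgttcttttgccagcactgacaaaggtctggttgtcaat
The consensus was matched in the promoters of 2 of the 7 genes and in 2 of their 13 windows. In Mef2a it begins 2 bases before the start and runs across it, and in Hdac5 it begins 20 bases before the start. None of the 3 windows of Mef2c held a match, and neither did those of Mef2d, Hdac4, Hdac7 and Hdac9. Of all 32851 promoter windows of that length, 3.19% held a match. The cyclic AMP response element TGACGTCA, which is not contained in the MEF2 consensus and was searched on both strands, was in 0 of the 13 windows and in 1.79% of all windows. Both counts describe these windows only.

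Reads assigned to genes ranged from 11839240 to 28311328 per library, and unmapped reads from 11.0% to 41.5%. Epileptic Ctrl-dCas9A library 4 was the deepest with the lowest unmapped share, and epileptic Kcna1-dCas9A library 12 the shallowest with the highest. Xist and the Y-linked gene Ddx3y split the libraries unevenly: 4 of 6 epileptic Ctrl-dCas9A, 2 of 6 epileptic Kcna1-dCas9A and 2 of 5 sham libraries had reads typical of females. The split goes by which of the 2 genes had more reads, and some libraries held both. Female-typical epileptic Kcna1-dCas9A libraries 12 and 11 had 90 and 138 reads of Ddx3y, and sham libraries 16 and 23 had 106 and 33. Male-typical epileptic Kcna1-dCas9A library 1 had 234 reads of Xist. Mixing of animals or libraries was not tested. Kcna1, the targeted gene, was at 13.9 to 29.5 CPM in 5 of the 6 epileptic Kcna1-dCas9A libraries and at 133 CPM in library 12, against 16.9 to 56.7 CPM in the epileptic Ctrl-dCas9A libraries (log2 fold change 0.32, SE 0.47, edgeR quasi-likelihood test with Benjamini-Hochberg adjusted P = 0.706). The sign of that value rests on library 12: without it the other 5 averaged 19.3 ± 6.16 CPM and the log2 fold change was -0.65 (SE 0.27, edgeR adjusted P = 0.293). CPM stands for counts scaled to a common library size after TMM, a correction for differences in library composition. Markers of the hippocampus were present: 6 of 6 for dentate granule cells, 4 of 4 for CA1 and 4 of 4 for CA3 pyramidal cells passed the filter on low counts, applied over all libraries.

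Levels of different genes can be compared per kilobase, here of the longest transcript in the gene models of an older build. Hdac4 is split into 2 models there, and their lengths were added. On that scale Hdac5 and Mef2a were the highest of the 7 in sham hippocampus and Hdac7 the lowest. Hdac5, a deacetylase that leaves the nucleus upon neuronal activity, was at 31.3 ± 1.28 CPM per kb (SD, n = 5). Mef2a followed at 27.7 ± 1.12, with ranges of 29.6 to 33.1 and 26.7 to 29.5 that nearly met. Mef2c was next at 20.8 ± 1.40 CPM per kb and overlapped with neither neighbour. Mef2d, Hdac9 and Hdac4 came after it at 10.2 ± 2.08, 7.92 ± 0.992 and 7.04 ± 0.734 CPM per kb. Hdac9 overlapped with both Mef2d and Hdac4, so its place is not resolved by 5 libraries. Mef2d (7.66 to 12.3) and Hdac4 (5.87 to 7.63) did not overlap, by a small margin that rests on the added length of Hdac4. Hdac7, better known from endothelium and lymphocytes, was at 2.71 ± 0.413 CPM per kb. In the epileptic Kcna1-dCas9A group Mef2c stood at 37.1 ± 13.1 CPM per kb (SD, n = 6), the highest mean of the 7 there, although its range of 21.1 to 55.9 took in all 6 Hdac5 libraries of that group (25.7 to 35.4). In the epileptic Ctrl-dCas9A group Mef2d was at 22.9 ± 11.2 and Mef2c at 18.4 ± 1.55 CPM per kb, with ranges that overlapped. The place of Mef2d holds for counted reads alone, which leave out reads shared with the opposite strand, as described with that gene. With the reads of both strands Mef2d was at 22.4 ± 1.70 CPM per kb in sham libraries, above Mef2c at 18.8 ± 1.25. Some of those reads may come from the gene on the opposite strand.

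**Figure D1:**
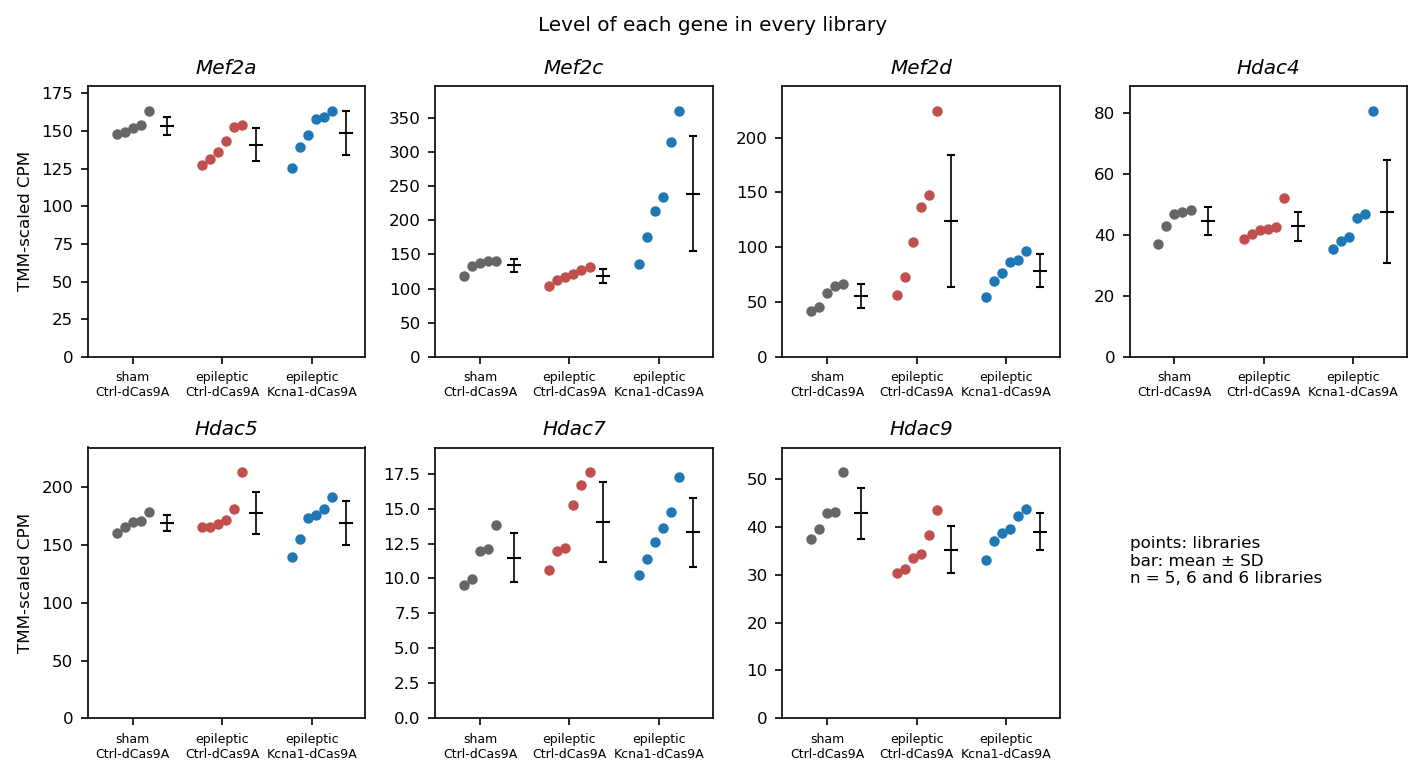
TMM-scaled CPM of each of the 7 genes (y axis, linear from 0) in every library (points) of the 3 groups (x axis), with the mean and SD as a bar. Mef2c is spread from 136 to 361 CPM in the epileptic Kcna1-dCas9A libraries, and Mef2d from 56.7 to 225 CPM in the epileptic Ctrl-dCas9A libraries, whereas Mef2a stays between 125 and 163 CPM throughout.

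Mef2c (chromosome 13, 83504017 to 83667079, GRCm38.p6) encodes the MEF2 factor best known from forebrain neurons. In the sham libraries it was at 119, 134, 137, 140 and 141 CPM. In the epileptic Ctrl-dCas9A libraries the lowest, median and highest values were 104, 119 and 132 CPM. In the epileptic Kcna1-dCas9A libraries they were 136, 224 and 361 CPM. Every epileptic Kcna1-dCas9A library therefore lay above every epileptic Ctrl-dCas9A library, narrowly so for library 11, and 5 of 6 lay above every sham library. The 2 epileptic groups had means of 239 ± 84.8 and 119 ± 10.0 CPM (SD, n = 6 each), a log2 fold change of 1.01 (SE 0.17). That is the difference by which Mef2c was known before, and no test is given for it. Groups did not overlap for 0.483% of the genes tested in this comparison and for 1 of the 7, Mef2c, from which nothing is read, since Mef2c was known by these values.

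Between epileptic Ctrl-dCas9A and sham mice, Mef2c had a log2 fold change of -0.17 (SE 0.18, 95% interval -0.56 to 0.21, edgeR adjusted P = 0.512). Between epileptic Kcna1-dCas9A and sham mice it was 0.84 (SE 0.18, 95% interval 0.45 to 1.23), which did not pass the threshold of 0.05 after adjustment over all genes (edgeR adjusted P = 0.246). Each of these comparisons shares an epileptic group with the one by which Mef2c was known. Their estimates and P values for Mef2c are therefore not independent of that choice, and no support is read from them. The call between epileptic Kcna1-dCas9A and sham mice depends on the tool. Adjusted P was 0.012 with DESeq2 and 0.0499 with limma voom and sample weights. With edgeR it was 0.0276 with the unmapped share as a covariate, and 0.0377 without the 2 libraries at the extremes of the unmapped share.

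The Mef2c values of the treated group went with other features of its libraries. The 4 epileptic Kcna1-dCas9A libraries with male-typical reads were at 214 to 361 CPM, and the 2 with female-typical reads at 136 and 175 CPM. Among epileptic Ctrl-dCas9A libraries the male-typical ones were at 104 and 113 CPM and the female-typical ones at 117 to 132 CPM. Since every treated library lay above every epileptic control, a split by sex could not show otherwise, and nothing is read from it. Both treated libraries called female also held Ddx3y reads. A list of 5 genes of the neocortex, which borders the hippocampus, passed the filter on low counts in full, and none was at 0. Its summed level was 135 to 174 CPM in sham, 152 to 180 in epileptic Ctrl-dCas9A and 113 to 302 CPM in epileptic Kcna1-dCas9A libraries. The same 4 male-typical libraries had the 4 highest sums, 209 to 302 CPM. Library 12 had the lowest sum of all 17 at 113 CPM, with Mef2c at 175 CPM. In edgeR 0 of the 5 genes passed the adjusted threshold between the epileptic groups and 4 were under an unadjusted P of 0.05, Rorb, Tbr1 and Lamp5 being higher and Fezf2 lower in the treated group. The 3 libraries highest in Mef2c, 1, 2 and 3, had the lowest sums of 4 ependymal markers of all 17 (21.6, 25.7 and 27.4 CPM, the next being 42.0). Libraries 1 and 2 also had the lowest sums of 4 choroid plexus markers (663 and 291 CPM, the next being 1197). Over 8 alternative settings, sex as a covariate among them, the log2 fold change of Mef2c between the epileptic groups was 0.91 to 1.08. The part of dissection and of sex in the Mef2c levels was not tested.

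**Figure D2:**
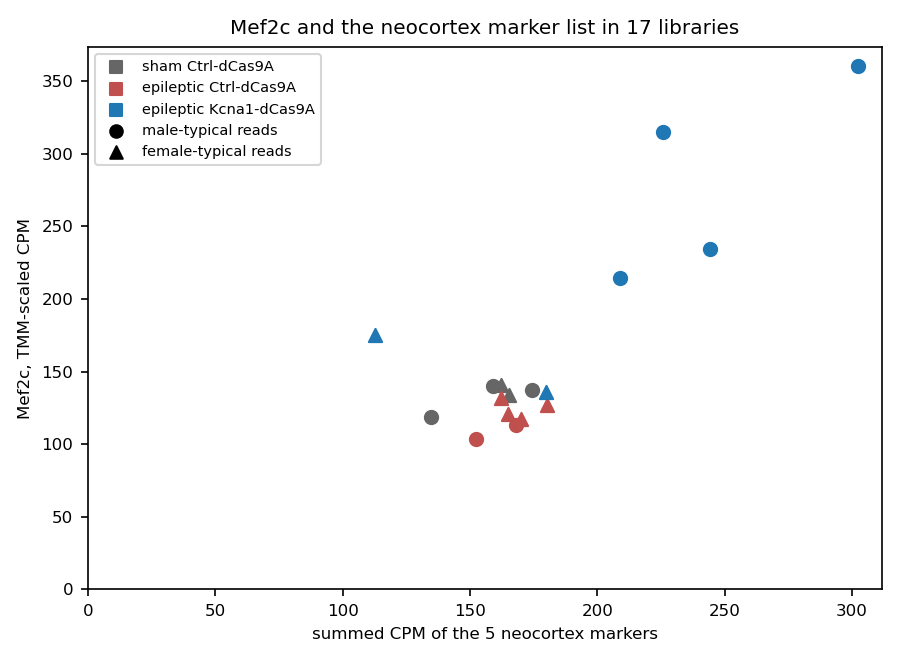
Mef2c (y axis, TMM-scaled CPM) against the summed CPM of 5 neocortex marker genes (x axis) in each of 17 libraries, coloured by group, with circles for male-typical and triangles for female-typical reads. The 4 male-typical epileptic Kcna1-dCas9A libraries sit apart at 209 to 302 CPM for the markers and 214 to 361 CPM for Mef2c, while library 12 of that group has the lowest marker sum, 113 CPM, and 175 CPM of Mef2c.

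The genes outside the family whose profile over the 17 libraries came nearest to that of Mef2c, by the root mean square difference of log2 CPM after centring each gene on its own mean, were Arpp21 (0.231), Arpp19 (0.248), Kcnv1 (0.275), Vip (0.278) and Dok5 (0.307). Arpp21 and Arpp19 encode phosphoproteins regulated by cyclic AMP, Kcnv1 a silent potassium channel subunit and Vip a neuropeptide of interneurons. Arpp21 was at 157 to 358 CPM in epileptic Kcna1-dCas9A libraries, 123 to 184 in epileptic Ctrl-dCas9A and 139 to 167 in sham libraries. Vip was at 23.6 to 44.1, 12.8 to 25.5 and 22.5 to 28.5 CPM in the same order. Unlike Mef2c, both overlapped between the epileptic groups.

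Mef2d (chromosome 3, 88141941 to 88172091), which encodes the MEF2 factor of wide expression in the adult brain, was the 1 of the 7 genes called between epileptic Ctrl-dCas9A and sham mice. The sham libraries were at 41.4, 45.7, 58.6, 64.6 and 66.4 CPM. The epileptic Ctrl-dCas9A libraries had a lowest value of 56.7, a median of 121 and a highest of 225 CPM. The epileptic Kcna1-dCas9A libraries had 54.2, 81.3 and 96.4 CPM. In each epileptic group 5 of 6 libraries were above every sham library, and the sixth lay within the sham range. Mef2d rose by 1.16 on the log2 scale in epileptic Ctrl-dCas9A mice (SE 0.27, 95% interval 0.59 to 1.74, edgeR adjusted P = 0.0327). Of all genes tested in this comparison, 11% were called, 7.26% higher and 3.76% lower, so 1 call among 7 genes is near the background. Groups did not overlap for 4.39% of genes, and for none of the 7.

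The call for Mef2d was lost without any 1 of 7 libraries: epileptic Ctrl-dCas9A libraries 4, 7 and 9 and sham libraries 13, 14, 16 and 23. Its log2 fold change without them ranged from 0.91 to 1.23, and adjusted P from 0.0529 to 0.0923. Without any 1 of the same 7 libraries, edgeR called 0 of all genes in this comparison. Between epileptic Kcna1-dCas9A and sham mice Mef2d had a log2 fold change of 0.51 (SE 0.27, 95% interval -0.06 to 1.08, edgeR adjusted P = 0.766). Between the epileptic groups it was -0.66 (SE 0.25), given as a description.

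The way reads were counted bears on Mef2d directly. In the RefSeq table the end of the gene overlaps by 532 bases with 1700113A16Rik, a noncoding RNA gene on chromosome 3 from 88171560 to 88177785, and unstranded counting assigns reads in an overlap to neither gene. Such shared reads can be recovered as the sum of the forward and reverse strand counts minus the unstranded count. Forward and reverse reads were nearly equal, so a shared read may come from either gene. Values with both strands can therefore include reads of the opposite gene. The annotation behind the counts is not given, so whether this overlap is the source of the shared reads was not tested. The shared reads were 52.9% to 65.3% of the both-strand count of Mef2d in sham libraries. They were 10.4% to 55.2% of it in epileptic Ctrl-dCas9A and 38.2% to 63.4% in epileptic Kcna1-dCas9A libraries. As levels they were 74.4 to 86.1 CPM in sham and 26.1 to 69.8 CPM in epileptic Ctrl-dCas9A libraries, without overlap, so the shared reads were fewer where the counted reads were more numerous. In epileptic Ctrl-dCas9A library 4, 6599 reads were counted and 766 were shared, against 765 and 1414 in sham library 13. With the reads of both strands added in all genes, Mef2d was at 107 to 130.2 CPM in sham and 115 to 222 CPM in epileptic Ctrl-dCas9A libraries. The log2 fold change was then 0.32 (SE 0.14), and it did not pass (edgeR adjusted P = 0.098). In 3514 genes, Mef2d included, the strand counts were more than 5% above the unstranded count. In counted reads 15.6% of them were called between these groups, against 9.86% of the others. Without Mef2d, their median shared part was 24.8% to 26.4% in sham and 25.0% to 29.4% in epileptic Ctrl-dCas9A libraries, not lower as in Mef2d. Counted Mef2d also went with the share of unmapped reads. In epileptic Ctrl-dCas9A libraries the order was exactly inverse, from library 5 (24.1% unmapped, 56.7 CPM) to library 4 (11.0%, 225 CPM). The extremes of the other groups went the same way: 27.7% (41.4 CPM) and 19.5% (66.4 CPM) in sham. In epileptic Kcna1-dCas9A libraries they were 41.5% (54.2 CPM) and 19.1% (96.4 CPM). The call in counted reads was kept with that share as a covariate. A change in the use of gene ends, in transcript processing and in RNA quality was not tested.

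**Figure D3:**
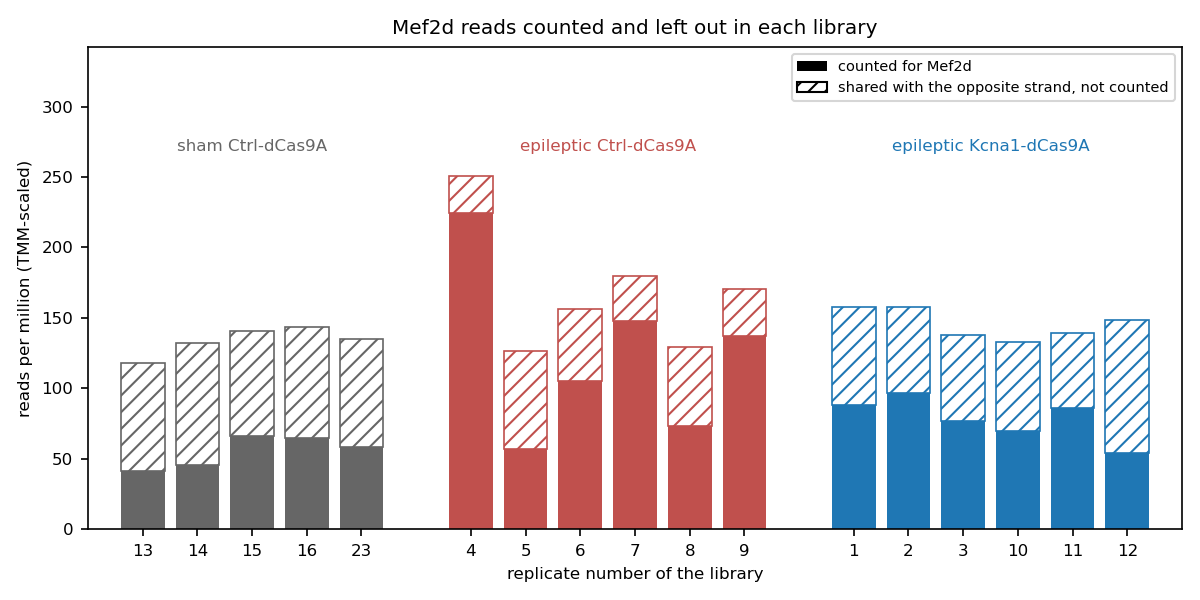
TMM-scaled CPM of Mef2d (y axis, with the factors of the counted reads) in each of 17 libraries (x axis, replicate number), with counted reads solid and reads shared with the opposite strand hatched on top. The hatched part is 74.4 to 86.1 in the 5 sham libraries and 26.1 to 69.8 in the 6 epileptic Ctrl-dCas9A libraries, where the solid part reaches 225.

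The gene nearest to Mef2d in profile was Ttyh3, which encodes a chloride channel, at a root mean square difference of 0.131. It was at 70.2 to 99.3 CPM in sham, 90.5 to 277 in epileptic Ctrl-dCas9A and 88.3 to 140.5 CPM in epileptic Kcna1-dCas9A libraries. Its strand counts gave no shared reads (both strands over unstranded, 1.00).

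Mef2a (chromosome 7, 67231163 to 67376456), whose product pairs with the other MEF2 factors, was nearly level. Its sham libraries were at 148, 149, 152, 154 and 163 CPM. Lowest, median and highest were 128, 139 and 154 CPM in epileptic Ctrl-dCas9A and 125, 152 and 163 CPM in epileptic Kcna1-dCas9A libraries. The 3 groups overlapped. Its log2 fold change against sham was -0.12 in epileptic Ctrl-dCas9A mice (SE 0.08, 95% interval -0.30 to 0.06, edgeR adjusted P = 0.305) and -0.05 in epileptic Kcna1-dCas9A mice (SE 0.08, 95% interval -0.22 to 0.13, edgeR adjusted P = 0.912). Reads that Mef2a shared with the opposite strand numbered at most 13 in sham libraries and 397, 189 and 167 in epileptic Ctrl-dCas9A libraries 4, 7 and 9. They were at most 8.06% of its both-strand count. The gene table lists no overlapping gene for Mef2a. Creg2 was its nearest gene in profile (0.0634).

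Of the deacetylases, Hdac9 (chromosome 12, 34047580 to 34917095), whose gene also gives rise to a form without the catalytic domain that represses MEF2, was lower in most epileptic Ctrl-dCas9A libraries than in sham. The sham libraries were at 37.4, 39.5, 42.9, 43.0 and 51.4 CPM. The epileptic Ctrl-dCas9A libraries had 30.4, 33.9 and 43.6 CPM as lowest, median and highest, and 4 of 6 lay below every sham library. The log2 fold change was -0.28 (SE 0.11, 95% interval -0.52 to -0.05), and it missed the adjusted threshold (edgeR adjusted P = 0.0852). It was past the threshold with limma voom and sample weights (-0.39, adjusted P = 0.00315) and without epileptic Ctrl-dCas9A library 5 (-0.35, edgeR adjusted P = 0.0185). Epileptic Kcna1-dCas9A libraries ran from 33.0 to 43.6 CPM with a median of 39.1, a log2 fold change of -0.13 against sham (SE 0.11, edgeR adjusted P = 0.81). Rb1cc1, an autophagy gene, was nearest in profile (0.120).

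Hdac4 (chromosome 1, 91928779 to 92195702), the class IIa deacetylase tied to memory and neuronal survival, was at 37.2, 42.8, 46.9, 47.6 and 48.3 CPM in sham libraries. Lowest, median and highest were 38.8, 41.7 and 52.2 CPM in epileptic Ctrl-dCas9A and 35.3, 42.5 and 80.9 CPM in epileptic Kcna1-dCas9A libraries. The value of 80.9 CPM belongs to library 12 of the latter group, the shallowest of the series. Its log2 fold change against sham was -0.05 in epileptic Ctrl-dCas9A mice (SE 0.17, 95% interval -0.41 to 0.31, edgeR adjusted P = 0.847) and 0.09 in epileptic Kcna1-dCas9A mice (SE 0.17, 95% interval -0.27 to 0.46, edgeR adjusted P = 0.908), a sign that turned without library 12 (-0.13). Its nearest gene in profile, Cyb5r3 (0.120), likewise had its highest value, 229 CPM, in this group.

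Hdac5 (chromosome 11, 102195747 to 102230172), the most abundant of the 4 deacetylases per kilobase, was at 160.1, 166, 169.7, 171 and 179 CPM in sham libraries. It was at 166, 170.2 and 213 CPM as lowest, median and highest in epileptic Ctrl-dCas9A and at 139, 175 and 191 CPM in epileptic Kcna1-dCas9A libraries. Its log2 fold change against sham was 0.07 in epileptic Ctrl-dCas9A mice (SE 0.09, 95% interval -0.13 to 0.27, edgeR adjusted P = 0.604), with library 4 apart from the rest, and 0.00 in epileptic Kcna1-dCas9A mice (SE 0.09, 95% interval -0.20 to 0.20, edgeR adjusted P = 0.996). Ncstn was nearest in profile (0.0711).

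Hdac7 (chromosome 15, 97792661 to 97844502) was at 9.52, 10.0, 12.0, 12.1 and 13.8 CPM in sham libraries, 150 to 331 reads each. Lowest, median and highest were 10.6, 13.7 and 17.6 CPM in epileptic Ctrl-dCas9A and 10.3, 13.1 and 17.2 CPM in epileptic Kcna1-dCas9A libraries. The 3 highest of the epileptic Ctrl-dCas9A group were libraries 4, 9 and 7. Its log2 fold change against sham was 0.29 (SE 0.16, 95% interval -0.06 to 0.64, edgeR adjusted P = 0.208) and 0.21 (SE 0.16, 95% interval -0.14 to 0.56, edgeR adjusted P = 0.797) in the 2 epileptic groups in that order. Reads shared with the opposite strand were at most 13.4% of its both-strand count, and 5330417C22Rik was nearest in profile (0.119).

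Between the epileptic groups the log2 fold changes of the members other than Mef2c are given as a description. They were -0.66 for Mef2d (SE 0.25), 0.08 for Mef2a (SE 0.08) and 0.15 for Hdac4 (SE 0.16). Those of Hdac5, Hdac7 and Hdac9 were -0.07 (SE 0.09), -0.08 (SE 0.15) and 0.15 (SE 0.11). In this comparison 0 genes were called by edgeR (0% of 17615), with 3387 under an unadjusted P of 0.05, while DESeq2 called 112 and limma voom 12. Between epileptic Kcna1-dCas9A and sham mice edgeR called 0 of the 7 genes and 0 genes in all (0%), with 1192 genes under an unadjusted P of 0.05, Mef2c among them, while DESeq2 called 39 and limma voom 71. Groups did not overlap for 1.14% of genes there, and for none of the 7. The 3 comparisons share libraries in pairs, so no agreement between them is read here.

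**Figure D4:**
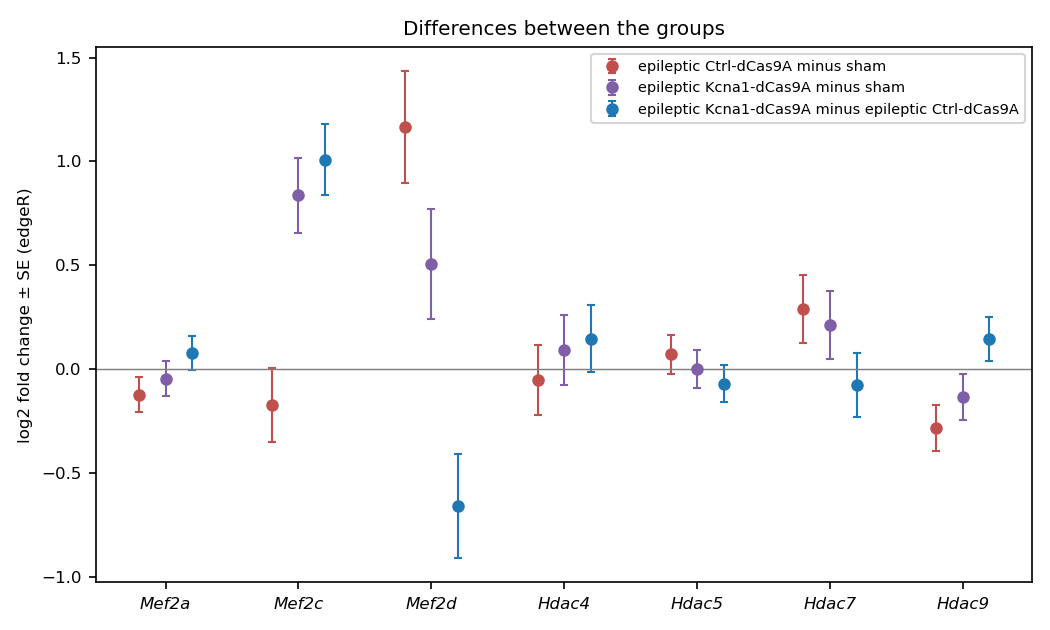
Log2 fold change of each of the 7 genes (y axis) with its SE as a bar, for the 3 comparisons (colours). Mef2c is at 1.01 and 0.84 in the comparisons that involve epileptic Kcna1-dCas9A mice and at -0.17 in the other, Mef2d is at 1.16, 0.51 and -0.66, and the other 5 genes stay between -0.28 and 0.29.

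Around the family, 67 genes on 8 lists of regulators, partners and targets were all tested. Between epileptic Ctrl-dCas9A and sham mice 13 were called (19.4%, 9 higher and 4 lower), against 11% of all genes, and the median log2 fold change was 0.13 against 0.02 over all genes. The lists were chosen with earlier results of these data known, so no excess over all genes is read from these values. None of the 67 was called without any 1 of the 7 libraries that Mef2d also needed. In the other 2 comparisons edgeR called 0 of the 67, with 26 under an unadjusted P of 0.05 between the epileptic groups (19.2% of all genes were) and 7 between epileptic Kcna1-dCas9A and sham mice (6.77% of all genes). DESeq2 called 2 and 0 there, and limma voom 1 and 1.

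**Figure D5:**
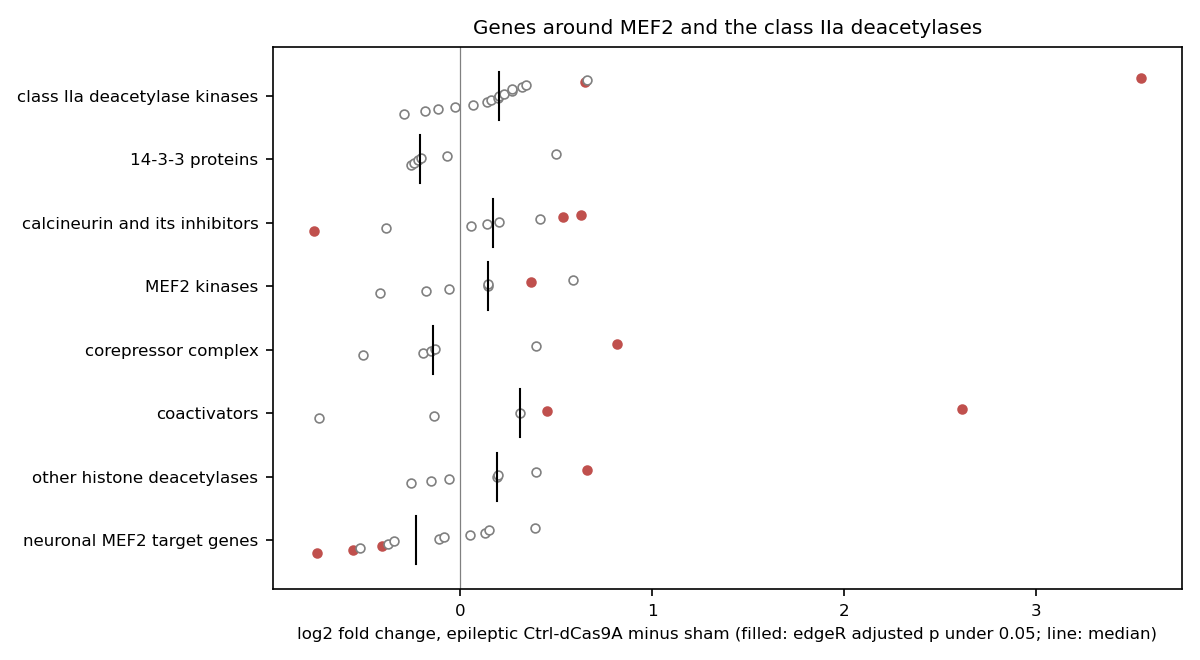
Log2 fold change between epileptic Ctrl-dCas9A and sham mice (x axis) of each gene on 8 lists (rows), filled where edgeR adjusted P was under 0.05, with a line at the median of the list. Filled points lie to the right in the lists of kinases and coactivators and to the left in the list of target genes, whose median is -0.23.

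Among 17 kinases upstream of the class IIa deacetylases, 2 were higher and none lower, with a median of 0.20. Camkk1, which activates the calcium/calmodulin kinases I and IV, rose from 113 ± 14.1 to 178 ± 39.7 CPM (SD, n = 5 and 6; log2 fold change 0.65, SE 0.17, edgeR adjusted P = 0.0347). Sik2, a salt-inducible kinase, rose from 0.313 ± 0.165 to 3.64 ± 3.40 CPM (log2 fold change 3.54, SE 0.60, edgeR adjusted P = 0.031). The both-strand count of Sik2 was 2.7 times its counted reads and may include reads of an opposite gene. With that count its log2 fold change was 1.48 (edgeR adjusted P = 0.0268). In counted reads the sham level of Sik2 is near the floor of 3 reads, 0.121 to 0.195 CPM in those libraries. The value of 3.54 thus rests on few sham reads. The Camk2 genes and Camk4 were not called.

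None of the 6 genes for 14-3-3 proteins, the export partners, passed with edgeR, although 4 were under an unadjusted P of 0.05, as were 34.7% of all genes. Their median was -0.21. Their largest differences were those of Ywhag, at 877 ± 89.0 CPM in sham and 1240.4 ± 213 in epileptic Ctrl-dCas9A libraries (log2 fold change 0.50, SE 0.16, edgeR adjusted P = 0.051), and Ywhaq, at 356 ± 7.88 and 299 ± 23.9 CPM (-0.25, SE 0.08, edgeR adjusted P = 0.0501).

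Of 8 genes of calcineurin and its inhibitors, 2 were higher and 1 lower, with a median of 0.17. Ppp3ca, the main catalytic subunit in neurons, fell from 5188 ± 501 to 3067 ± 835 CPM (log2 fold change -0.76, SE 0.23, edgeR adjusted P = 0.0436), and no epileptic Ctrl-dCas9A library reached a sham library. Ppp3cc, another catalytic subunit, rose from 11.6 ± 1.40 to 16.8 ± 2.07 CPM (0.54, SE 0.15, edgeR adjusted P = 0.0366). Cabin1, which binds and restrains both calcineurin and MEF2, rose from 32.5 ± 3.29 to 50.1 ± 15.9 CPM (0.63, SE 0.18, edgeR adjusted P = 0.0407).

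Of 7 MEF2 kinases, Mapk14, the p38 alpha kinase that phosphorylates MEF2, was the 1 called, rising from 57.9 ± 5.15 to 74.6 ± 11.6 CPM (log2 fold change 0.37, SE 0.11, edgeR adjusted P = 0.042). The median log2 fold change of the 6 corepressor genes was -0.14. Among 5 coactivators Kat2a, a histone acetyltransferase, rose by 0.45 (SE 0.14, edgeR adjusted P = 0.0477). Carm1, an arginine methyltransferase, rose from 4.49 ± 0.992 to 27.6 ± 17.6 CPM in counted reads (2.61, SE 0.50, edgeR adjusted P = 0.031). The both-strand count of Carm1 was 4.23 times its counted reads and may include reads of an opposite gene. With that count its log2 fold change was 0.23 and did not pass (edgeR adjusted P = 0.098).

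The 7 deacetylases of other classes gave a comparison with the 4 of class IIa, of which none was called. Hdac6, a cytoplasmic deacetylase of tubulin, rose from 20.3 ± 2.09 to 32.1 ± 8.94 CPM (log2 fold change 0.66, SE 0.19, edgeR adjusted P = 0.0423), and the other 6 were not called. Whether class IIa genes differ from the others in response was not tested.

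Of 12 genes taken as neuronal targets of MEF2, 3 were lower and none higher in epileptic Ctrl-dCas9A than in sham mice and the median was -0.23. Homer1, a postsynaptic scaffold, fell from 111 ± 7.77 to 84.1 ± 7.38 CPM (log2 fold change -0.40, SE 0.13, edgeR adjusted P = 0.0489). Klf6, a transcription factor, fell from 68.2 ± 6.22 to 46.4 ± 12.5 CPM (-0.56, SE 0.15, edgeR adjusted P = 0.0377). Ube3a, a ubiquitin ligase, fell from between 116 and 141 to between 52.1 and 110.3 CPM (-0.74, SE 0.23, edgeR adjusted P = 0.0467), and by 0.58 with both strands added (edgeR adjusted P = 0.0446). The activity-dependent targets Arc, Nr4a1, Bdnf and Egr1 were not called. In epileptic Kcna1-dCas9A mice Homer1 was at 117 ± 28.5, Klf6 at 80.1 ± 12.8 and Ube3a at 123 ± 59.4 CPM. Their log2 fold changes from epileptic Ctrl-dCas9A mice were 0.47 (SE 0.12), 0.79 (SE 0.15) and 0.62 (SE 0.22), with edgeR adjusted P of 0.213, 0.175 and 0.213. The median of the 12 was 0.32 there, against -0.01 over all genes, and none passed.

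Of 60 genes on 12 lists of cell type markers, 6 were called between epileptic Ctrl-dCas9A and sham mice (10%), near the 11% of all genes. Astrocytes had 2 of 5 genes called higher, microglia 1 of 6 and CA1 pyramidal cells 1 of 4, and CA3 pyramidal and ependymal cells had 1 of 4 called lower each. The lists of endothelial cells, dentate granule cells, interneurons, oligodendrocytes, choroid plexus, neocortex and all neurons had none called. The summed level of astrocyte markers was 782 to 871 CPM in sham and 893 to 1318 CPM in epileptic Ctrl-dCas9A libraries, and that of 5 markers of all neurons was 4619.5 to 4916 and 4179.8 to 4544 CPM, both without overlap. The summed level of interneuron markers had medians of 1372 and 968 CPM, with ranges that overlapped. Their part in the differences of Mef2d, its regulators and the target genes was not tested.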

How the data were processed

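Hippocampal RNA selected for polyA was sequenced in 17 libraries. The authors aligned reads to mm10 with STAR 2.7 and deposited raw read counts per gene for each library, with columns for unstranded, forward and reverse reads. The annotation release is not given in the sources used here. The forward and reverse columns were nearly equal, so the unstranded column was used, and their sum was an alternative. Summary lines (multimapped, unmapped, no feature, ambiguous) were left out of library sizes. The authors' own tests used DESeq2.

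Counts were filtered with filterByExpr, TMM-scaled and tested in 1 edgeR 4.0.16 quasi-likelihood fit (R 4.3.3) over the 3 groups, two-sided, with Benjamini-Hochberg adjustment over 17615 genes and a threshold of 0.05. The procedure was tested on simulated data. Alternatives were DESeq2 1.42.0, RLE scaling, no filter, both strands, covariates (unmapped share, sex from reads), limma 3.58.1 voom with sample weights, and each library left out. The members and lists were chosen with earlier results of these data known. Named genes were all members, Mef2b, Kcna1, up to 4 called genes per list and comparison (otherwise the 2 of largest difference), the 5 genes nearest to Mef2c and the 1 nearest to each other member, with a mean of at least 5 CPM. Genes named outside that rule were chosen after their values were seen. A result on the pathway lists is not reported here.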

Additional observations from a re-analysis of the deposited data

Results flagged for a closer look

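In 4 of the 24 groups of libraries examined (8 genes in 3 groups each), 1 library stood farther from the rest of its group than Dixon's 95% limit allows, a limit that chance passes in about 1 of 20 groups. Hdac4 was at 80.9 CPM in epileptic Kcna1-dCas9A library 12, with the next library at 46.9 CPM. Kcna1, the targeted gene, was at 133 CPM in the same library, with the next at 29.5 CPM. Hdac4 was also apart in epileptic Ctrl-dCas9A library 7, at 52.2 CPM with the next at 42.7 CPM. Hdac5 was at 213 CPM in epileptic Ctrl-dCas9A library 4, with the next at 181 CPM.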

How the results depend on the processing

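The number of genes called between epileptic Ctrl-dCas9A and sham mice, 1940, became 3539 with DESeq2, 7301 with limma voom, 428 with the unmapped share as a covariate, 516 with sex as a covariate and 3106 without epileptic Ctrl-dCas9A library 4 and epileptic Kcna1-dCas9A library 12, an alternative chosen after seeing the data. It ranged from 0 to 5526 when each library was left out, 5526 being without epileptic Ctrl-dCas9A library 5 and 4777 without epileptic Kcna1-dCas9A library 12. Of the 7 genes, 0 were called with both strands, 2 with limma voom and 0 to 2 with a library left out. Of the 67 pathway genes, 4, 3, 35 and 23 were called with the unmapped share, with sex, with limma voom and without the 2 libraries, and 0 to 28 with a library left out.

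Between the epileptic groups the count of 0 genes became 112 with DESeq2, 12 with limma voom and 1 without a filter, and 0 to 1508 with a library left out (1508 without epileptic Ctrl-dCas9A library 5). The pathway count became 2 with DESeq2, 1 with limma voom and 0 to 8 with a library left out. Between epileptic Kcna1-dCas9A and sham mice the count of 0 genes became 39 with DESeq2, 266 with the unmapped share, 71 with limma voom, 88 without the 2 libraries and 0 to 14 with a library left out. Among the 7 genes it became 1 with each of these 4 settings, Mef2c in each case. Since Mef2c was known by these treated libraries, no support is read from those calls. Of the pathway genes, 1 was called with the unmapped share, with limma voom and without the 2 libraries. Of the 5 genes nearest to Mef2c, 3 to 5 stayed with a library left out.

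Signs against sham turned in 2 of the 7 genes, Hdac4 and Hdac5, neither of them called. Hdac4 against sham became 0.16 in epileptic Ctrl-dCas9A mice with the unmapped share, and -0.10 with limma voom and -0.12 without the 2 libraries in epileptic Kcna1-dCas9A mice (-0.13 to 0.17 with a library left out). Hdac5 became -0.0146 in epileptic Ctrl-dCas9A mice with the unmapped share, and -0.00085 with DESeq2 and -0.0019 with RLE scaling in epileptic Kcna1-dCas9A mice (-0.0363 to 0.0442 with a library left out). The cause was not tested. Between the epileptic groups Mef2c stayed between 0.85 and 1.13 with a library left out. No paired analysis was possible because the groups share no replicate numbers. The level per kilobase with both strands and the Kcna1 value without library 12 were likewise chosen after seeing the data.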
